A study of Mus musculus with 8 samples.

Results

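The 8 KPC tumors of this study separated by how much skeletal muscle RNA they carried. Acta1, which encodes the actin of skeletal muscle thin filaments, had 10093 to 30612 raw counts in 5 tumors and 1 to 7 raw counts in the other 3, and no tumor lay between 7 and 10093. The 5 tumors with at least 1000 Acta1 counts (WT replicates 1 and 4 and C3-/- replicates 1, 3 and 4) are called Acta1-high. All 8 tumors were chosen for their class by these raw Acta1 counts. The 3 tumors with under 100 (WT replicates 2 and 3 and C3-/- replicate 2) are called Acta1-low. The name muscle-free would go too far, since each of the 3 still held between 3 and 10 counts of Tnnt3.

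Tumor RNA was sequenced from 4 WT and 4 C3-/- male mice on the C57BL/6J background, all 12 weeks old. C3 is the complement protein on which the activation pathways meet, and C3-/- mice lack its gene in the host. Every mouse received 250000 KPC FC1245 cells in 50 μL of PBS in the tail of the pancreas and was killed at day 14. FC1245 is a single mouse pancreatic cancer line from a tumor of a genetically engineered mouse, and it keeps its own C3 gene, so tumors in C3-/- mice still contain C3-competent cells. No mouse without a tumor was among the sequenced samples. C3 itself had 209 to 425 CPM (the count scaled to a common library total, here adjusted by TMM) in WT tumors and 100.1 to 133 CPM in C3-/- tumors, without overlap. Total counts ran from 15453897 to 23354212 in Acta1-high and from 13266029 to 17394883 in Acta1-low tumors. The labels name each sample as a tumor and name no muscle, and what tissue was taken along with a tumor is not stated in the sources used here. In bulk RNA, fewer muscle fibers and less RNA per fiber cannot be told apart.

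A skeletal muscle fiber is built of sarcomeres, in which thin filaments of actin slide along thick filaments of myosin between Z discs. Calcium released from the sarcoplasmic reticulum starts the sliding, and creatine kinase buffers the energy it uses. Fibers differ by the myosin heavy chain they make, with Myh4 in the fastest fibers, Myh1 and Myh2 in other fast fibers and Myh7 in slow ones. Myog, Myh3 and Myh8 mark developing or regenerating fibers, and the ubiquitin ligases Trim63 (MuRF1) and Fbxo32 (atrogin-1) mark muscle that is wasting.

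The promoters of 5 genes on which the description turns are shown because the genes appear together in the same tumors. Each line holds the 250 bases before the start site, 5′ to 3′, from RefSeq (GRCm38.p6). Capitals mark an E-box (CANNTG, the same on both strands), a MEF2 site or a CArG box, and no 2 of the marked motifs overlap.
Acta1, minus strand of chr8:123894776-123895025: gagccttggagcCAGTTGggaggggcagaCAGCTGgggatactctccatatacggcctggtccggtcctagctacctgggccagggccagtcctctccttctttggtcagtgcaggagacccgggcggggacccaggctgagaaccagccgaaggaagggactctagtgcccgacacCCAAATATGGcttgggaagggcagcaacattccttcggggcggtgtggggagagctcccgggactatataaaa
Ckm, plus strand of chr7:19410844-19411093: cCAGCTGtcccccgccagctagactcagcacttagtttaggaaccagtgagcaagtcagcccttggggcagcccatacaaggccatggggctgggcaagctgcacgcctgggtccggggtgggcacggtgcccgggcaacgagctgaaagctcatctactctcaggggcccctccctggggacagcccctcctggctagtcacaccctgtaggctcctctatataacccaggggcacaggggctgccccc
Myh4, plus strand of chr11:67237562-67237811: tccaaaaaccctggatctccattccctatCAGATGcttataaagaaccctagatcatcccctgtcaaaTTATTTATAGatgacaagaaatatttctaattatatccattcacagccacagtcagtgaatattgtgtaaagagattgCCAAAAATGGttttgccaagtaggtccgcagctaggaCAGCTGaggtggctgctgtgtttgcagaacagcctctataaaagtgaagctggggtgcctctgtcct
Myog, plus strand of chr1:134289754-134290003: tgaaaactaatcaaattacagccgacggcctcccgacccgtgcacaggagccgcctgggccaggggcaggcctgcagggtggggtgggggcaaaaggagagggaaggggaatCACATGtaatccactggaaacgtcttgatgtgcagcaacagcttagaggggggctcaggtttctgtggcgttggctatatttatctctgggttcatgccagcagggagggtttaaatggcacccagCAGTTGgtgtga
Trim63, plus strand of chr4:134314870-134315119: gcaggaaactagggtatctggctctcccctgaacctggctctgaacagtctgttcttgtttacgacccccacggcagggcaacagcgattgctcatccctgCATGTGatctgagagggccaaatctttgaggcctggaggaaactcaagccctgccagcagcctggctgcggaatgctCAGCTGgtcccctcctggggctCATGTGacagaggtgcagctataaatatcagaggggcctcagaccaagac

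Only exact matches to a consensus were marked, and near matches to the MEF2 and CArG consensus were not counted. By that count Acta1 and Myh4 held a CArG box, Myh4 held a MEF2 site, and all 5 held at least 1 E-box. RefSeq promoters were matched for 85 of the 119 genes on the muscle lists, as 99 windows. A MEF2 site was in 15.2% of those windows against 2.92% of all 32851 promoter windows, and a CArG box in 8.08% against 1.47%. An E-box was in 79.8% against 66.2%. These matches describe letters in the windows and were not tested.

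The 3 markers were read in every tumor as CPM. Acta1 (chr8:124618508-124621490, mm39) had 763 and 1299.8 CPM in WT replicates 1 and 4, and 1058, 635 and 1497 CPM in C3-/- replicates 1, 3 and 4. It had 0.5265, 0.0752 and 0.391 CPM in WT replicates 2 and 3 and C3-/- replicate 2, and these are the values by which the tumors were chosen. Tnnt3 (chr7:142052573-142069746), the troponin T of fast fibers, had 162, 473, 184, 137 and 300.3 CPM in the Acta1-high tumors, listed here and below as WT 1, WT 4, C3-/- 1, C3-/- 3 and C3-/- 4. It had 0.301, 0.226 and 0.559 CPM in the Acta1-low tumors, listed as WT 2, WT 3 and C3-/- 2. Ckm (chr7:19138701-19156766), the muscle creatine kinase, had 88.8, 194, 122, 83.3 and 199 CPM against 0.226, 0 and 0.0559 CPM. Each marker separated the classes without overlap, and the fitted log2 folds were 11.57 for Acta1, 9.41 ± 0.64 (SE) for Tnnt3 and 10.48 ± 0.67 for Ckm.

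**Figure D1:**
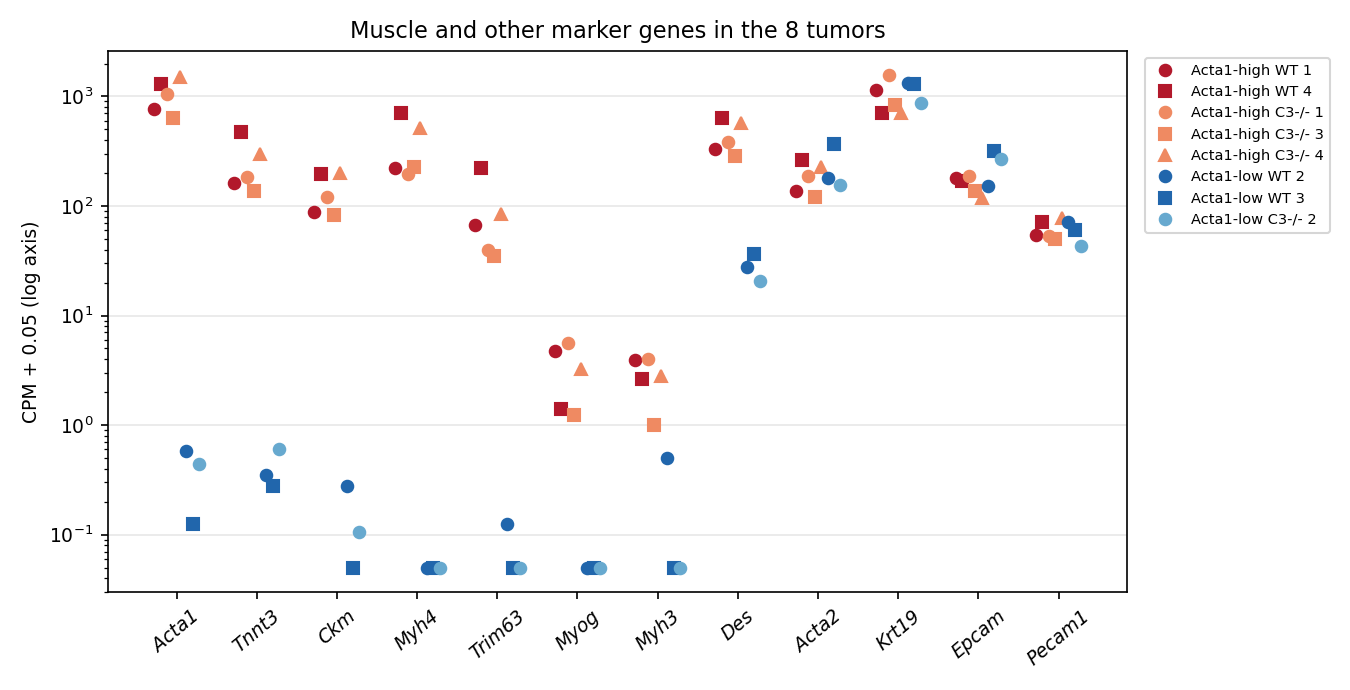
CPM plus 0.05 on a log axis for 12 genes in the 8 tumors, with 1 point per tumor, red and orange for Acta1-high and blue for Acta1-low. The 7 muscle genes at the left do not overlap between the classes, desmin (Des) is also higher in the Acta1-high tumors, and Acta2, Krt19, Epcam and Pecam1 overlap.

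Because the classes were cut from these same libraries, folds between them are given as a description with no test. A gene is counted as higher or lower when its fitted fold was at least 2, with genotype as a term in the fit, and when the tumors of the classes did not overlap in CPM. Of 16610 genes with enough counts to be fitted, 305 were higher in Acta1-high tumors (1.84%) and 25 were lower (0.151%). The filter could pass genes found only in Acta1-high tumors but not genes found only in Acta1-low tumors. These counts are therefore not on an equal footing. At any fold, the classes did not overlap for 418 higher (2.52%) and 155 lower genes (0.933%). The median log2 fold of all genes was -0.01. Of the 305, 82 were on the lists of muscle genes and 223 were not. Among the 165 genes at least 8-fold higher, 69 were on those lists and 65 more were recognised afterwards as skeletal muscle genes. The other 140 genes lay between 2-fold and 8-fold. Of all 305, 92 fell in none of the muscle, matrix, immune and Hox groups described below.

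All 16 thick filament genes were higher. Myh4, the heavy chain of the fastest fibers, had 222, 705, 195, 228 and 510 CPM in Acta1-high tumors and 0 counts in every Acta1-low tumor, which makes it at least 5807-fold higher with a floor of 3 counts over those 3 tumors. Ttn, the giant spring protein titin, had 268, 814, 98.4, 284 and 834 CPM against 1.13, 2.03 and 2.29 CPM. Mybpc2, a myosin-binding protein of fast fibers, had 121, 222, 108, 88.0 and 236 CPM against 0.602, 0.15 and 0.279 CPM. Mybpc1 had a log2 fold of 9.86 ± 0.73 and Ttn one of 7.98 ± 0.90. For 7 of the 16 genes the Acta1-low tumors held no count at all, and the median log2 fold of the list was 8.89, or 8.26 with those genes at their lower bound. In 12 of the 16 every Acta1-low tumor held under 10 counts, so most of the list entered the fit only through the Acta1-high tumors. With at least 10 counts required in every tumor, 3 thick filament genes remained, all higher, with a median of 4.51, and 19 of 40 genes on the muscle lists were higher.

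Among thin filament genes, 11 of 12 tested members were higher, 1 of them Acta1 itself, which is higher by the choice of tumors. Tpm2 (β-tropomyosin) was the exception, at 239, 370, 365, 221 and 345 CPM against 165, 269 and 116 CPM. Neb (nebulin) had 138, 412, 51.7, 118 and 355 CPM against 1.80, 2.26 and 2.35 CPM. Tnni2, the troponin I of fast fibers, was not near 0 in the Acta1-low tumors, with 12.03, 28.4 and 21.7 CPM against 105 to 291 CPM, a log2 fold of 3.05 ± 0.43. Lmod2 (leiomodin) had 0 counts in the Acta1-low tumors and was at least 1030-fold higher. In 5 of the 12 thin filament genes every Acta1-low tumor held under 10 counts. With at least 10 counts required in every tumor, 5 of 6 were higher. Tnnc2, the troponin C of fast fibers, had 0 to 2 counts in every tumor. Its gene lies on the minus strand at chr2:164619081-164621887 and overlaps Ube2c on the plus strand, which had 58.6 to 147 CPM. How reads were assigned by strand is not stated, so the Tnnc2 value is uncertain.

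Z disc and sarcolemma genes were higher for 18 of 19 tested members. In 14 of the 19 every Acta1-low tumor held under 10 counts, so most entered the fit through the Acta1-high tumors. With at least 10 counts required in every tumor, 2 members remained and 1 was higher. Actn3, the actinin of fast fibers, had 137, 233, 108, 101 and 243 CPM against 0.902, 0.527 and 0.279 CPM. Xirp2 did not overlap either, and Cmya5 had a log2 fold of 6.23 ± 0.74. Dmd (dystrophin) was the member that overlapped, at 11.2 to 26.2 CPM against 7.67 to 13.5 CPM.

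In excitation-contraction coupling 14 of 17 tested members were higher. Atp2a1, the calcium pump of fast fibers, had 307, 808, 175, 307 and 686 CPM against 0.376, 0.752 and 0.279 CPM. Ryr1, the calcium release channel, had a log2 fold of 7.77 ± 0.63. Jph1, Jph2 and Clcn1 overlapped between the classes. In 7 of the 17 every Acta1-low tumor held under 10 counts. With at least 10 counts required in every tumor, 3 of 5 coupling genes were higher. In muscle energy metabolism 11 of 14 were higher, among them Pygm, the muscle glycogen phosphorylase, with 65.6, 148, 48.8, 74.7 and 158 CPM against 2.78, 1.81 and 0.894 CPM. Eno3 was 2.03 ± 0.28 higher on the log2 scale. Fbp2, the muscle fructose bisphosphatase, was not, at 11.1 to 19.1 CPM against 12.1 to 17.8 CPM. In 7 of these 14 genes every Acta1-low tumor held under 10 counts. With at least 10 counts required in every tumor, 4 of 5 were higher. The plot of list members shows this spread, from lists that are separated throughout to lists that are not.

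**Figure D2:**
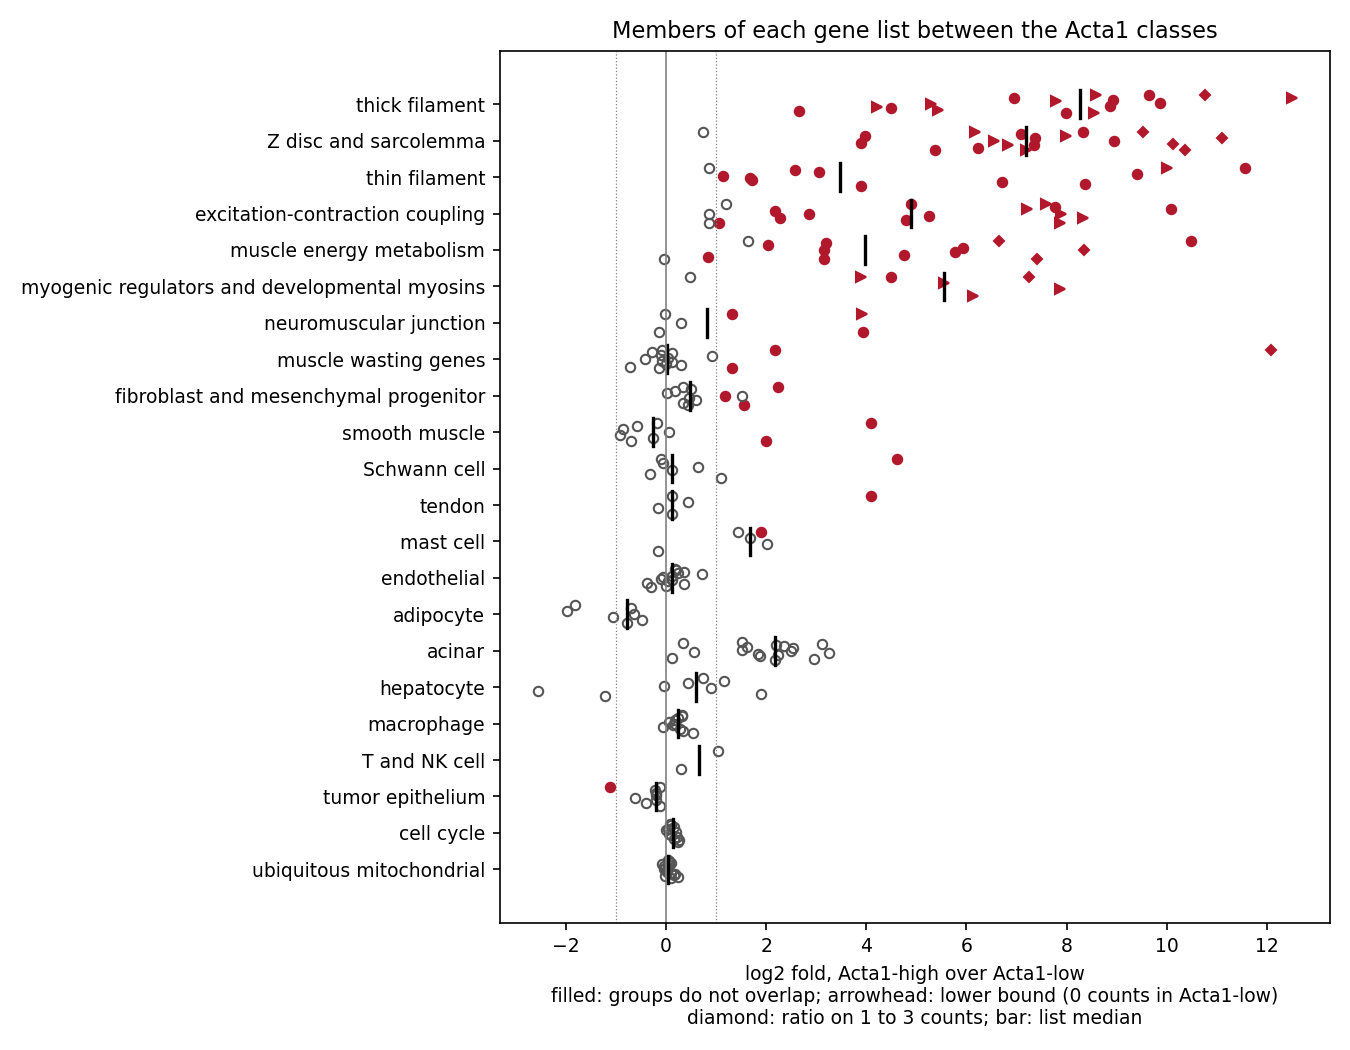
Each mark is 1 gene that passed the filter, placed at its log2 fold of Acta1-high over Acta1-low for 22 gene lists, with filled marks where the classes do not overlap at any fold, arrowheads for lower bounds and a bar at each list's median. All 16 thick filament genes are filled, while 3 of 16 muscle wasting genes and 0 of 17 ubiquitous mitochondrial genes are.

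Among the myosin heavy chains, the fast gene Myh4 was the most abundant. Counts of the 6 myosin heavy chain genes were divided by gene length, and Myh4 made up 72.3%, 73.4%, 81.4%, 77.8% and 72.9% of the sum in the 5 Acta1-high tumors. Myh1 made up 10.4% to 21.8% and Myh2 2.54% to 6.32%. Slow Myh7 ranged more widely in proportion, from 0.587% in WT 4 to 4.10% in C3-/- 4. Summed per kilobase, the fast fiber list exceeded the slow fiber list 23.1, 57.3, 20.3, 26.7 and 29.0 times. In the Acta1-low tumors the same ratio was 1.53, 2.39 and 4.00, and Tnni2 gave 8.04, 18.9 and 14.5 of the 10.9, 20.9 and 16.7 CPM per kilobase of the fast list there. All 12 fast genes and all 8 slow genes tested were higher in Acta1-high tumors. In 6 of the 12 and 4 of the 8, every Acta1-low tumor held under 10 counts. With at least 10 counts required in every tumor, 2 fast and 3 slow genes remained, all higher.

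**Figure D3:**
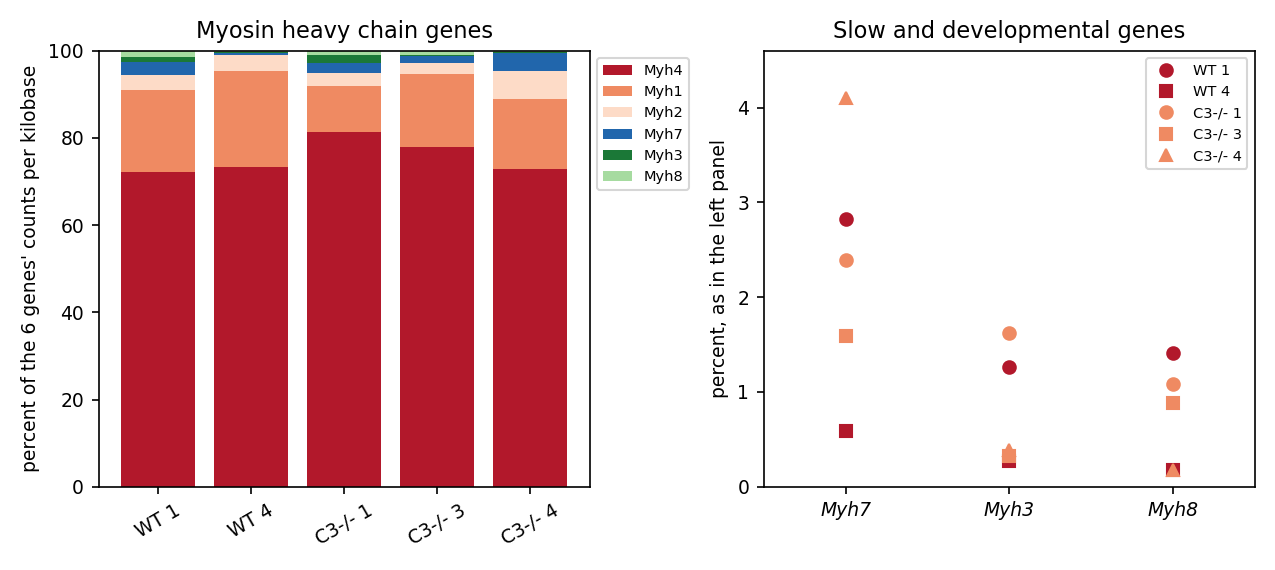
The left panel stacks the share of 6 myosin heavy chain genes, in percent of their summed counts per kilobase, for the 5 Acta1-high tumors, and the right panel plots Myh7, Myh3 and Myh8 alone. Myh4 is the largest share in each tumor, Myh3 stays at or under 1.63% and Myh8 at or under 1.41%.

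Genes of muscle development and repair were also present. Myog, a master regulator of myoblast differentiation, had 4.66, 1.36, 5.56, 1.196 and 3.16 CPM and 0 counts in the Acta1-low tumors, at least 47.2-fold. Myh8, the perinatal heavy chain, had 8.44, 3.31, 5.09, 5.03 and 2.46 CPM against 0 counts, and embryonic Myh3 had 3.91, 2.59, 3.92, 0.944 and 2.73 CPM against 0.451, 0 and 0 CPM. Myf6, a regulator that mature fibers keep, was highest of the group at 9.30 to 24.7 CPM. WT 1 and C3-/- 1 had the most Myog, whereas WT 4 and C3-/- 4 had the most Myf6. The satellite cell genes Pax7 and Calcr did not pass the filter and stayed under 0.5 CPM in every tumor. Of the 13 genes on this list 7 passed and 6 of those were higher. In 6 of the 7 every Acta1-low tumor held under 10 counts, so they entered the fit through the Acta1-high tumors. With at least 10 counts required in every tumor, 1 gene remained and 0 were higher.

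At the neuromuscular junction 3 of 6 tested receptor and scaffold genes were higher. Chrna1, the adult and fetal acetylcholine receptor α subunit, had 7.29 to 15.0 CPM against 2.96 to 6.85 CPM. Chrnd had 0 counts in Acta1-low tumors and 0.595 to 1.61 CPM in Acta1-high tumors, and fetal Chrng, which did not pass the filter, had 0.252 to 2.62 CPM against 0. Musk was higher by 3.94 ± 0.97 on the log2 scale. Chrnb1 was not, at 66.3 to 83.3 CPM against 76.8 to 80.1 CPM. In 2 of the 6 tested genes every Acta1-low tumor held under 10 counts. With at least 10 counts required in every tumor, 1 of 3 was higher.

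Of 16 tested genes linked to muscle wasting, 3 were higher, namely Trim63, Fbxo32 and Eda2r. Trim63 had 67.1, 221, 39.7, 34.7 and 85.1 CPM and a single count in the Acta1-low tumors together, a ratio of 4320 with a 95% exact interval of 775 to 170648 that covers counting error only. Fbxo32 had 89.6, 244, 59.8, 70.3 and 130.4 CPM against 31.0, 23.3 and 27.8 CPM. Eda2r, a receptor of the TNF family, was 1.33 ± 0.43 higher on the log2 scale. The other 13 overlapped, such as Ctsl at 352 to 498 CPM against 338 to 642 CPM. Mt1, Sqstm1 and Ddit4 overlapped too. The median log2 fold of the list was 0.01.

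Outside the muscle and fiber lists, the 12 genes taken for the size of their fitted fold, with at least 1 CPM on average, were Igfn1, Mypn, Art1, Eef1a2, Lrrc30, Adprhl1, Ano5, Mlip, Myo18b, Smtnl1, Cacng6 and Rbm24. All but Myo18b had at most 1 count in the Acta1-low tumors together, so their fitted folds depend on the prior count and give no order among them. Most of these are known from striated muscle. Eef1a2, the elongation factor that replaces Eef1a1 in mature muscle and neurons, had 42.6, 98.6, 52.2, 42.7 and 76.8 CPM against 0.0752, 0 and 0 CPM. Igfn1, a partner of the Z disc, had 27.5 to 114 CPM and 0 counts in Acta1-low tumors, at least 836-fold. Myo18b had a log2 fold of 8.74 ± 0.70.

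Within the Acta1-high tumors, the genes whose CPM kept the steadiest ratio to Acta1 were sought among those at least 8-fold higher. Over the 5 tumors the smallest SDs of the log2 ratio outside the muscle lists belonged to Ccn5 (0.18), Des (0.18), Eef1a2 (0.26), Trim72, Apobec2, Trim54, Thbs4, Myadml2, Mylf-ps and Ankrd23 (0.34). Des, the intermediate filament protein desmin, stood at 43.2%, 49.3%, 36.0%, 45.4% and 38.2% of Acta1 CPM. Des also had 20.7 to 36.1 CPM in the Acta1-low tumors. Trim72, which seals membrane breaks in muscle, stood at 0.945% to 1.64%. Mylf-ps is a pseudogene of a myosin light chain gene, so reads may be split between the copies. Ccn5, a matricellular protein of the CCN family, and Thbs4, a thrombospondin of tendon and muscle matrix, are secreted proteins rather than parts of the sarcomere.

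On the muscle lists, Cacng1 (0.14), Jsrp1 (0.15) and Ckm (0.16) had SDs as small, while genes such as Abra (1.34) and Ttn (1.11) did not keep a steady ratio. For 146 genes at least 8-fold higher and with at least 1 CPM on average, the log2 ratio to Acta1 was set against each gene's median over the 5 tumors. The median deviation was 0.44 in WT 4 and -0.69 in C3-/- 1, and 0 in the others. In C3-/- 1 the deviation was lower in longer genes (Spearman's ρ = -0.49 across genes, against -0.07 to 0.18 in the other 4, a description since the genes share a library). Its median was -1.39 for the 10 genes of at least 10000 bases and -0.40 for the 37 genes under 2000 bases. Ttn, the longest, had 0.839 CPM per kilobase in C3-/- 1 and 2.28 to 7.11 in the other 4. Fragment length and RNA quality were not part of the files, and their part in this was not tested.

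**Figure D4:**
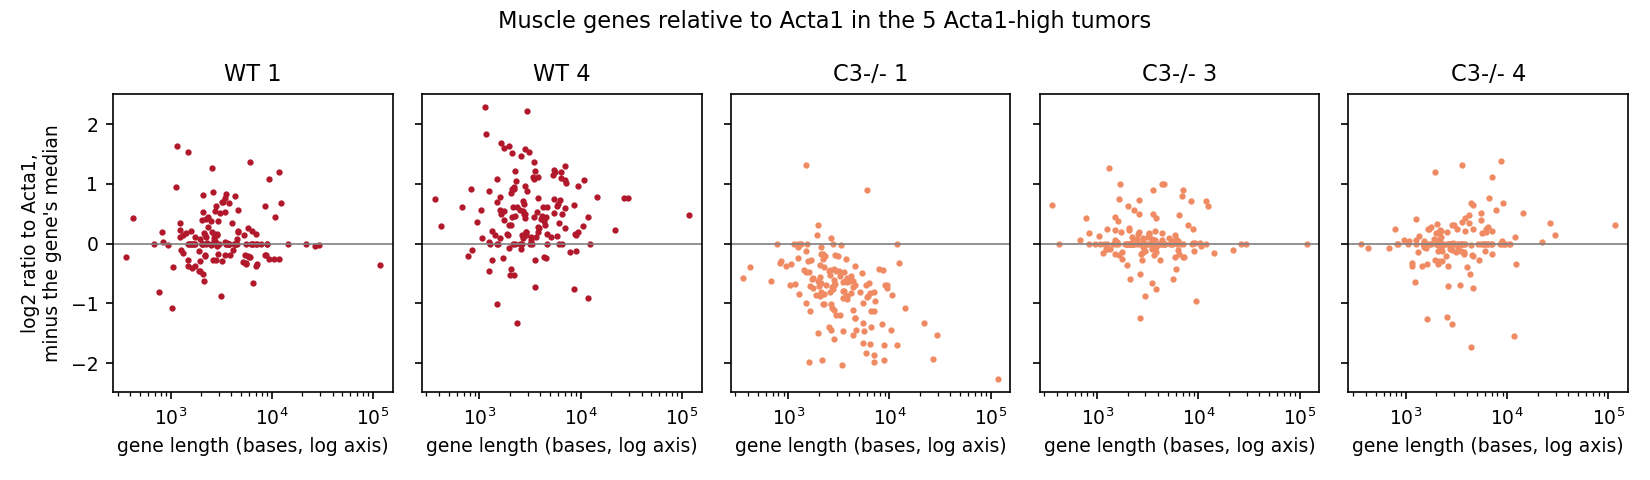
For each of the 5 Acta1-high tumors, each point is 1 of 146 genes at least 8-fold higher than in Acta1-low tumors, with gene length in bases on a log axis and the log2 ratio to Acta1 minus the gene's median over the 5 tumors on the other. Points of C3-/- 1 are lower at greater length, with a median of -0.69, and most of those of WT 4 lie above 0, with a median of 0.44.

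Some genes of connective tissue were higher in Acta1-high tumors. Among 12 fibroblast and mesenchymal progenitor genes, 3 were higher, namely Dpt, Smoc2 and Pi16, and the median log2 fold was 0.47. Dpt (dermatopontin) had 11.1, 23.7, 14.7, 12.1 and 15.2 CPM against 9.48, 3.61 and 0.838 CPM. Pi16, a gene of progenitor fibroblasts around vessels, had 8.81 to 14.5 CPM against 4.19 to 7.30 CPM. The bulk fibroblast genes overlapped, with Col1a1 at 2587 to 4659 CPM against 1731 to 5137 CPM and Col3a1 at 1969 to 3293 CPM against 1336 to 2885 CPM. Dcn and Pdgfra overlapped as well.

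Reading through the 223 genes outside the muscle lists, after their values were seen, gave 27 matrix and fibroblast genes with log2 folds from 1.03 to 5.53, all picked because they were higher. Postn (periostin) had 534, 476, 339.7, 401 and 455 CPM against 281, 199 and 152 CPM. Cilp, a cartilage and interstitial matrix protein, had 212, 152, 148, 100.2 and 144 CPM against 86.3, 23.7 and 28.8 CPM. Col14a1, a collagen that binds fibril surfaces, had 38.8 to 63.1 CPM against 18.8 to 21.4 CPM. Igfbp5 had 166 to 224 CPM against 71.1 to 102 CPM. Thbs4 had 27.3, 28.8, 23.1, 15.9 and 32.0 CPM against 2.18, 0.677 and 1.62 CPM, a log2 fold of 4.10 ± 0.39. The remaining tendon genes tested (Scx, Comp, Fmod and Chad) overlapped, and without C3-/- replicate 2 2 tendon genes were higher. WT 2, an Acta1-low tumor, was closest to the Acta1-high range for Dpt, Cilp and Pi16.

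A set of Hox genes, which record position along the body axis, also differed. These were recognised after the values were seen. Of 32 Hox genes measured, 23 could be fitted and 7 were higher (Hoxc6, Hoxc8, Hoxc9, Hoxc10, Hoxa9, Hoxa10 and Hoxd9). Hoxc10 had 2.17, 1.66, 3.69, 1.13 and 5.67 CPM against 0.301, 0.602 and 0.112 CPM. Hoxc9 had 3.35, 3.57, 3.60, 1.89 and 3.76 CPM against 0.677, 0.527 and 0.391 CPM, and Hoxa9 1.99, 1.87, 1.87, 1.89 and 3.27 CPM against 0.226, 0.376 and 0.615 CPM. The higher genes were paralogs 6 and above. Of paralogs 9 to 13, 5 of 6 tested were higher with a median log2 fold of 1.89, of paralogs 6 to 8, 2 of 7, and of paralogs 1 to 5, 0 of 10 with a median of -0.03. No member of the Hoxb cluster was among them, with Hoxb6 at 17.6 to 22.3 CPM against 14.2 to 19.3 CPM. These levels are low, and the 4 higher Hoxc genes overlap the annotated span of Hoxc5, so their counts are uncertain.

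**Figure D5:**
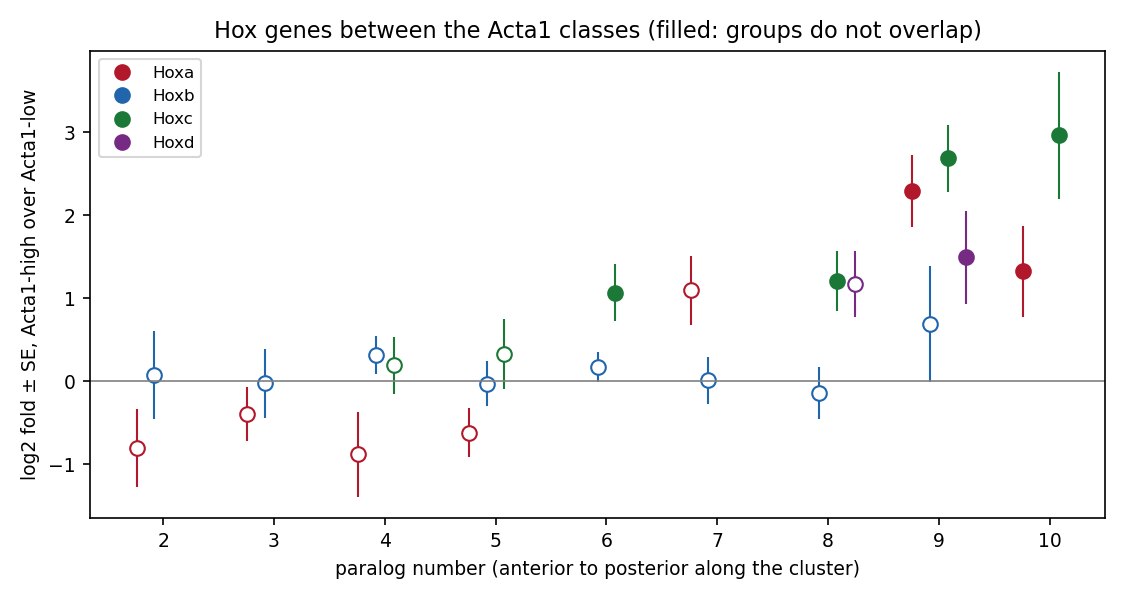
Log2 fold of Acta1-high over Acta1-low with its SE for the 23 Hox genes that passed the filter, by paralog number and coloured by cluster, with filled points where the classes do not overlap. Filled points occur from paralog 6 upward, the highest being Hoxc10 at 2.96, and all Hoxb points are open.

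Other cell types were checked with lists of their markers. For vessels, 0 of 14 endothelial genes separated the classes, with summed CPM of 407 to 588 against 374 to 573, while 1 of 5 genes of muscle and fat capillaries was higher, the transcription factor Meox2, at 2.76 to 5.18 CPM against 0.827 to 1.65 CPM. Without WT replicate 2, 3 of the 5 capillary genes and 1 endothelial gene were higher. For smooth muscle, Des and Synpo2, which striated muscle also makes, were higher, and Acta2, Smtn, Myh11 and Actg2 overlapped, so 2 of 9 were higher. Without C3-/- replicate 4, 1 smooth muscle gene was lower. Of 3 tested cardiac genes, Myl4 was higher at 4.59 to 12.3 CPM against 1.05 to 2.63 CPM, and it is also made in fetal skeletal muscle. Mast cells gave 1 of 5, Mcpt4, and the proteases Cma1, Cpa3 and Tpsb2 had log2 folds of 2.02, 1.43 and 1.67 but overlapped through WT 3. Without WT replicate 3, 4 of the mast cell genes were higher, and without C3-/- replicate 3, 3 were. For nerve, 1 of 7 Schwann cell genes was higher, or 2 without WT replicate 3 or WT replicate 4.

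The tumors also differed in tissues that did not follow the Acta1 classes. Acinar enzymes of the pancreas had a median log2 fold of 2.18 but 0 of 17 tested genes separated the classes, as their summed CPM was 673, 236, 2379, 48.1 and 45.1 in Acta1-high and 216, 438 and 73.3 in Acta1-low tumors. C3-/- 1 was highest, and C3-/- 3 and 4 were lowest. Without C3-/- replicate 1 the median log2 fold was 0.78, and without it and WT replicate 4 it was 0.39. Adipocyte genes were highest in WT 2, with a summed CPM of 725 against 85.4 to 270.0 in the other 7 tumors, and 0 of 7 tested genes separated the classes. Hepatocyte genes were also highest in WT 2, at 837 CPM, as were islet genes, at 105 CPM against 0.497 to 4.91 in the other 7, and 0 of 8 hepatocyte genes separated. Counts were likewise 0 of 11 for macrophage, 0 of 6 for neutrophil, 0 of 2 for T and NK cell, 0 of 5 for B and plasma cell, 0 of 7 for mesothelial, 0 of 7 for erythroid, 0 of 1 for islet, 0 of 3 for keratinocyte, 0 of 4 for intestine and 0 of 16 for complement genes. Leaving out single tumors moved some of these zeros. Without WT replicate 3, 2 neutrophil, 1 acinar and 1 hepatocyte gene were higher, and without WT replicate 2, 1 adipocyte gene was. Without C3-/- replicate 1, 1 keratinocyte gene was higher and 1 erythroid gene lower, and without C3-/- replicate 2, 1 islet gene was lower.

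Immune genes outside these lists were few. After the values were seen, 9 chemokine and immune genes were found among the 305, such as Ccl8, a monocyte chemokine, at 12.4, 25.1, 31.9, 10.6 and 26.4 CPM against 8.499, 6.92 and 3.19 CPM. Ccl11 (eotaxin) had 3.60 to 6.27 CPM against 1.34 to 3.54 CPM, and Cxcl9 had 1.07 to 3.71 CPM against 0.335 to 0.752 CPM. The highest value of the 9 in any tumor was the 31.9 CPM of Ccl8.

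Tumor epithelium genes mostly overlapped between the classes. Of 9 tumor epithelium genes, Krt8, Krt18, Krt19 and Cdh1 overlapped, with Krt8 at 1798 to 3045 CPM against 1936 to 3448 CPM. Cldn4, a tight junction claudin of epithelium, was lower in Acta1-high tumors at 24.4, 37.6, 40.5, 23.8 and 24.3 CPM against 90.0, 87.5 and 42.9 CPM. Without WT replicate 1 no gene on the list was counted as lower. The summed level of the list was 5981 to 9857 CPM against 7659 to 11174 CPM. Neither the 12 cell cycle genes (0 separated, median log2 fold 0.14) nor the 17 mitochondrial genes of all cells (0 separated, 0.04) held a gene that was higher or lower.

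The 25 lower genes had modest folds, and none reached 4-fold, which the count filter in part sets, as given below. Among the 12 with the largest folds and at least 1 CPM were Gm39529, Zbtb8b, Cnnm1, Gzme, C430002N11Rik, Cyp26b1, Gipr, Scn8a, Glb1l2, Mcpt8 and Cldn4. Cyp26b1, which breaks down retinoic acid, had 9.99, 10.3, 9.95, 3.90 and 6.17 CPM against 31.0, 12.1 and 21.5 CPM. Gzme, a granzyme of killer cells, had 2.02 to 4.20 CPM against 4.58 to 18.4 CPM. Scn8a, a sodium channel, had 2.40 to 3.35 CPM against 5.57 to 8.35 CPM, a log2 fold of -1.22 ± 0.25. Leaving out any 1 tumor moved the count of lower genes from 25 to between 39 and 112, of which 19 to 24 were among the 25. Fewer tumors make it easier for classes not to overlap. The count filter asked for counts in as many tumors as 1 genotype holds, more than there are Acta1-low tumors. A gene found only in Acta1-low tumors could not pass it, so large lower folds could be missed. With no filter beyond 1 count, 113 genes were lower and 477 were higher.

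Genotype is the study's own comparison, and the labels give it. Acta1-high tumors were 2 of 4 WT and 3 of 4 C3-/- tumors. The mean log2 CPM of the thin filament list was 4.43, 0.31, 0.30 and 5.06 in WT replicates 1 to 4 and 4.47, 0.36, 4.18 and 5.24 in C3-/- replicates 1 to 4. These values follow the Acta1 classes, and Acta1 is on the list, so they are given with no test. Nothing states that mice were littermates or shared a batch, so p-values measure the spread between these mice.

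The genotypes were then compared gene by gene with muscle taken into account. With the Acta1 class as a term, edgeR's quasi-likelihood test called 0 of 16610 genes at an adjusted p below 0.05 (0%), and 705 had an unadjusted p below 0.05. Among the 5 Acta1-high tumors alone it called 0 of 17402 (0%), with 719 at an unadjusted p below 0.05. DESeq2, which adjusted p over 29925 and 29313 genes and so differed in both tool and filter, called 19 (0.0635%) and 13 genes (0.0443%), of which 0 and 0 were on the muscle lists. C3 had edgeR's smallest p in both, with log2 folds of C3-/- over WT of -1.34 ± 0.22 (edgeR adjusted p = 1) and -1.37 ± 0.20 (adjusted p = 0.981). Next by p were Sema4f and Lrrc17 over all 8 tumors, and Alb and Banp among the Acta1-high tumors, with none past edgeR's threshold. DESeq2 called all of these, with adjusted p = 3.95e-05 for C3, 0.00173 for Sema4f and 0.00638 for Lrrc17 over all 8 tumors, and 0.000189 for C3, 0.0233 for Alb and 0.00538 for Banp among the Acta1-high tumors. DESeq2's 19 calls included Gm24061, Gm4846, Gm8004, Gm25558, Apoa4 and Cby3, with fitted log2 folds of 17.8 to 18.3. Folds that large are not reliable as sizes. The 19 also included Tat and Ahsg of the hepatocyte list. Without C3-/- replicate 1, the tumor richest in acinar transcripts, edgeR called 8 genes with the class term, all lower in C3-/- tumors. They were the acinar and pancreatic stress genes Reg2, Prss2, Try5, Ctrb1, Reg3b, Reg3a, Amy2a4 and Amy2a1.

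Among muscle list genes 0 of 107 and 0 of 111 were called. At an unadjusted edgeR p below 0.05 were 6 (5.61%) and 5 (4.505%), against 4.24% and 4.13% of all genes tested. In the 2 comparisons 79 of 107 and 76 of 111 were lower in C3-/- tumors. Their median log2 folds were -0.22 and -0.22, against -0.0013 and 0.0113 for all genes. These genes share the same tumors, and this was not tested. With no filter beyond 1 count, edgeR called 97 of 29337 genes among the Acta1-high tumors (0.331%), 56 of them lower in C3-/- tumors. Among the 97 were liver genes such as Alb and Fgb, globin genes such as Hba-a1, and immunoglobulin genes such as Ighg2c. On the muscle lists 7 were called, all lower in C3-/- tumors (Trim63, Lmod2, Myoz2, Myh1, Klf15, Fbxo32 and Slc2a4). Acta1 itself differed by 0.04 ± 0.37 on the log2 scale among the Acta1-high tumors, Ckm by -0.08 ± 0.40 and Tnnt3 by -0.62 ± 0.45. The muscle genes with the smallest p were Trim63, Myoz2 (a calcineurin-binding protein of slow fiber Z discs) and Klf15 (a transcription factor of muscle metabolism). Among Acta1-high tumors Trim63 averaged 144 CPM in WT and 53.1 CPM in C3-/- tumors, a log2 fold of -1.44 ± 0.51. Its edgeR adjusted p was 0.981, and 1.4e-05 with no filter beyond 1 count. The fold was -1.44 in both fits and the filtered edgeR unadjusted p was 0.021, so the small value depends on the filter. Its CPM overlapped between genotypes, since C3-/- 4 lay above WT 1, and WT 4 was highest. Myoz2 averaged 7.74 and 2.40 CPM and Klf15 8.30 and 2.81 CPM. Klf15 is no muscle-only gene here, since Acta1-low WT 2 had 6.54 CPM.

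Relative to Acta1, log2 Trim63 was -3.51 and -2.55 in the WT tumors and -4.74, -4.20 and -4.14 in the C3-/- tumors. This comparison was added after the p-values by genotype were seen, on the same tumors. The values did not overlap, and the difference was -1.33, given with no test. With Ckm in place of Acta1 the difference was -1.26, and with the median of the 146 genes it was -0.87. This separation was not particular to Trim63. Both WT tumors lay above all C3-/- tumors for 43 of the 146 genes relative to Acta1 (29.5%) and below for 2 (1.37%). With the genes' own median as the denominator these were 24 (16.4%) and 19 (13%). The long genes that were low in C3-/- 1 enter these counts, and their part was not tested.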

How the data were processed

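RNA from 8 KPC tumors was analysed. The authors prepared poly-A libraries, sequenced paired ends, and deposited raw counts per gene on mm39. The study's methods name STAR and HTSeq, while the submitters' processing notes list HISAT2 2.0.5 and DESeq2 1.20.0, so the aligner is uncertain, and the strand setting is not given in the sources used here. Their normalized counts, FPKM, fold changes and p-values were not used. The deposited counts of 29968 genes summed to 13266029 to 23354212 per tumor.

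Members were taken by raw Acta1 count (at least 1000, or below 100). The members, gene lists and tests were chosen with earlier results of these data known. Genes were filtered with filterByExpr (minimum count 10), scaled by TMM and fitted with edgeR 4.0.16 in R 4.3.3 with genotype and class as terms, in tests by quasi-likelihood with Benjamini-Hochberg adjustment at 0.05. Class folds carry no p. Genes with 0 counts in Acta1-low tumors have a bound at a floor of 3 counts over those tumors, and counts of 1 to 3 have exact 95% intervals. These cover counting error only. Levels averaged as log2 CPM used a prior count of 2. Named genes were C3, the 3 markers, the most abundant members of each list, the 12 largest folds each way outside the muscle lists, the smallest p-values by genotype, and the 10 genes steadiest against Acta1. Others are named as chosen afterwards. Alternatives were DESeq2 1.42.0, limma-voom (limma 3.58.1), DESeq2's size factors, other filters, single genotypes, a fold of 4, the replicate number as a block, and each tumor left out. The fits were tested on simulated data. A few items, among them members of the lists and of the largest folds, are not reported here.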

Additional observations from a re-analysis of the deposited data

How the results depend on the processing

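Counts of genes between the Acta1 classes moved with the filter and the tumors. For higher genes (305), no filter beyond 1 count gave 477, at least 10 counts in every tumor gave 105, and C3-/- tumors alone, with a single Acta1-low tumor, gave 505, of which 118 were among the 305. WT tumors alone gave 205, of which 102 were, and leaving out each tumor in turn gave 298 to 451, of which 291 to 302 were among the 305. For lower genes (25), the same settings gave 113, 9 and 170, WT tumors alone gave 98 (5 of the 170 and 8 of the 98 were among the 25), a fold of 4 gave 0, and leaving out each tumor gave 39 to 112, of which 19 to 24 were among the 25. Leaving out C3-/- replicate 1 and WT replicate 4 together, added after seeing the data, gave 360 higher and 81 lower genes. Genotype calls were 0 in edgeR with the class as a term. DESeq2 gave 19, no filter gave 1 (C3), and leaving out each tumor gave 0 to 8. Among Acta1-high tumors DESeq2 gave 13, no filter gave 97, and leaving out each tumor gave 0. limma-voom called 0 in both. The difference in mean thin filament level between C3-/- and WT tumors, 1.04 on the log2 scale, stayed between 0.30 and 2.11 when each tumor was left out. The difference in Trim63 relative to Acta1 stayed between -1.80 and -0.85 when each tumor was left out. The cause of these shifts was not tested. Filters change how many genes are tested and also which genes the spread is estimated from, and these were not told apart.

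The labels tie same-numbered WT and C3-/- tumors by nothing but the number. The correlations of their deviations were -0.03, 0.49, -0.36 and 0.59. These deviations carry the Acta1 class, which same-numbered tumors share for replicates 1, 2 and 4 but not for replicate 3. The correlations therefore cannot show whether the numbers pair the mice. With a replicate block, higher genes were 286, lower genes 35, and genotype calls 0 with the class term and 39 among Acta1-high tumors, 3 of them on the muscle lists (Lmod2, Trim63 and Myh1, with edgeR adjusted p = 0.00646, 0.0291 and 0.0291). The acinar median turned from 2.18 to -3.94 with the block. Genes under about 1 CPM rest on few counts, and 3 Acta1-low tumors limit every class fold.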
